A study of Homo sapiens with 15 samples.

Results

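The comparison described here is Nutlin against its vehicle DMSO in asynchronously growing U2OS cells. It rests on 6 of the 15 RNA sequencing libraries of the series, chosen by their labels. The treated libraries are Nutlin asynchronous replicates 1 to 3, from cells given Nutlin at 10 µM, where the micro is read in here because the labels print the unit with its prefix lost. Their controls are DMSO asynchronous replicates 1 to 3, from cells given DMSO alone. Both groups share the cell line and were grown without the thymidine block that the other 9 libraries went through. U2OS is an established osteosarcoma line with wild-type p53, and the series uses that line alone. The sources used here do not state how long asynchronous cells were exposed to Nutlin. Nor do they tell whether the numbered replicates came from cultures grown apart. Every p-value then describes only the spread among the libraries of the series that entered the fit, which may be technical.

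The transcription factor p53 is held at a low level by MDM2, a ubiquitin ligase that binds it and sends it to the proteasome. Nutlin fits into the p53 pocket of MDM2 and so frees p53, which then switches on genes for cell cycle arrest, cell death, DNA repair and metabolism, and also MDM2 itself. The p21 protein made from CDKN1A inhibits cyclin-dependent kinases, and RB family proteins then keep E2F and mitotic genes silent. In osteosarcoma cells with wild-type p53 the drug is widely used to start this programme without damaging DNA.

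Reads assigned to genes came to 23.34, 11.89 and 15.44 M reads (M for mega) in Nutlin libraries 1 to 3, against 16.98, 17.91 and 15.64 M reads in DMSO libraries 1 to 3. Values below are the deposited log2 values unless they are called normalised reads, which are reads recovered from them and scaled to a common library size. Of 22 mesenchymal and bone markers, 16 passed the filter on low values, and the list summed to 77732 to 81670 normalised reads in the Nutlin libraries and 64313 to 78490 in the DMSO libraries. The intermediate filament gene VIM was present at 34910.5 to 39288 in the Nutlin libraries and 27808 to 42329.5 in the DMSO libraries. The osteoblast regulator SP7 and TWIST1 stood at 0 reads in all 6, and BGLAP, COL1A2, DLX5 and ZEB2 had at most 1.0, 4.1, 2.8 and 7.5 normalised reads in any of them. Blood cell markers summed to 111 to 139.6 normalised reads in the Nutlin libraries and 75.1 to 139.7 in the DMSO libraries.

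One library went against its label. The library labelled DMSO asynchronous replicate 3, called the library labelled DMSO 3 from here on, had MDM2 and CDKN1A above every Nutlin library and also held transcripts of epithelial and breast cells. Of 26 epithelial markers, 21 were highest of the 6 libraries there and 18 lay more than 1 log2 unit above each of the other 5. KRT19 had 9.4, 5.6 and 6.4 normalised reads in the Nutlin libraries and 12.4, 3.7 and 7826 in the DMSO libraries. ESR1, the oestrogen receptor, had 7.9, 4.2 and 3.2 in the Nutlin libraries and 2.1, 2.8 and 1434 in the DMSO libraries. The summed epithelial list lay between 25168 and 32668 normalised reads in the Nutlin libraries, between 23058 and 33263 in DMSO libraries 1 and 2, and at 52634 in the library labelled DMSO 3. Among all genes tested, 237 stood more than 1 unit above the other 5 asynchronous libraries there, 30 of them by more than 3 units, and 0 stood as far below. Counts are therefore given in all 6 libraries and without that library, and a gene named as changed was called in both fits unless its text says otherwise. Its part in a result was tested in no other way.

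Of 14257 genes tested without the library labelled DMSO 3, 437 changed with Nutlin at an adjusted p under 0.05 in limma, which is 3.07%. Of these, 318 rose (2.23%) and 119 fell (0.835%). In all 6 libraries 351 of 14298 genes changed (2.45%), 273 upward (1.91%) and 78 downward (0.546%). In these fits the spread per gene came from all 15 libraries of the series, or from 14 without that library. Both fits called 216 genes higher, which is 79.1% of the calls in all libraries and 67.9% of those without that library, and 66 genes lower, which is 84.6% and 55.5%. Called increases were larger than called decreases in the median. Without the library, the median size was 0.78 log2 units among genes called higher and 0.49 among genes called lower. A change of at least 1 unit was reached by 94 of the genes called higher and by 1 of those called lower, the linker histone gene HIST1H1A. The counts depend on the few libraries: leaving out DMSO library 1 as well, so that 1 DMSO library remained, gave 190 genes higher and 23 lower. Leaving out DMSO S-phase replicate 2 instead, which enters through the shared spread, gave 536 higher and 352 lower. With the spread taken from the asynchronous libraries alone, 675 genes were called without the library labelled DMSO 3 and 209 in all 6 libraries. In all 6 libraries, leaving out 1 asynchronous library at a time gave totals from 171 without Nutlin replicate 1 to 437 without the library labelled DMSO 3, and leaving out DMSO S-phase replicate 2 gave 525. Over all genes tested, every Nutlin library lay above DMSO libraries 1 and 2 in 15.1% and below them in 21.1%. Against all 3 DMSO libraries these shares were 8.49% and 9.64%.

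**Figure D1:**
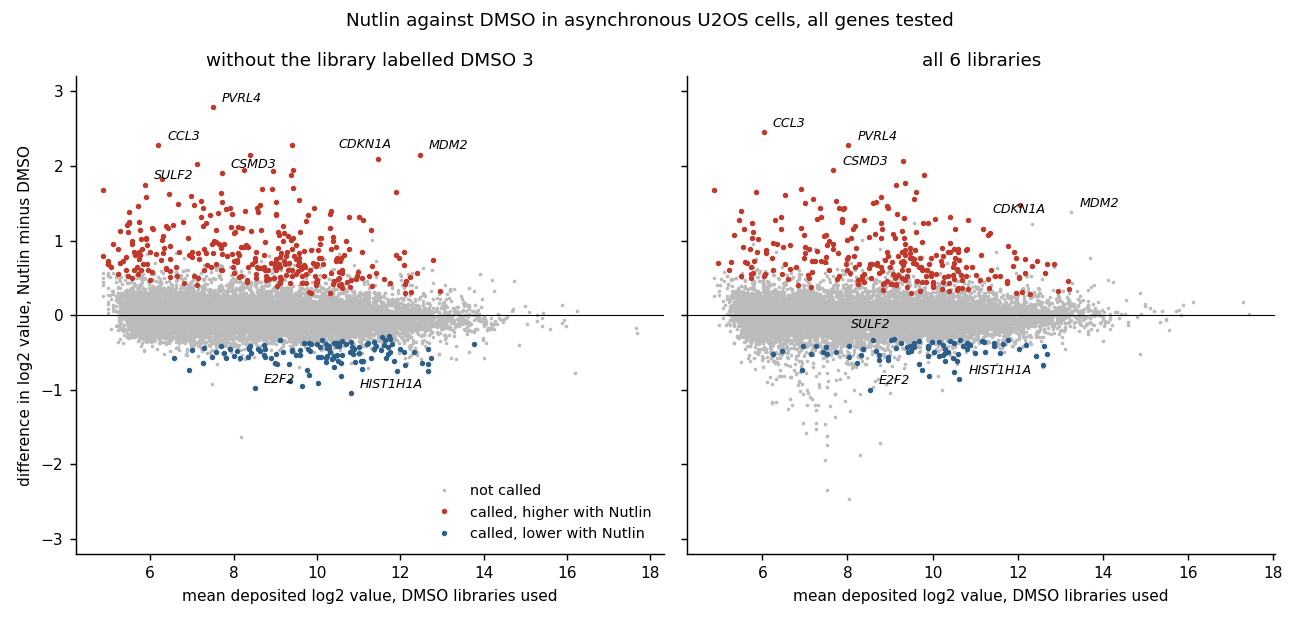
Difference in deposited log2 value, Nutlin minus DMSO (vertical axis), against the mean log2 value in the DMSO libraries used (horizontal axis), with 1 point per gene tested, without the library labelled DMSO 3 (left) and in all 6 libraries (right). Red points were called higher and blue points lower at an adjusted p under 0.05 in limma. The 318 genes called higher without that library reach 2.79 units and the 119 called lower reach -1.05 units (HIST1H1A), and MDM2 and CDKN1A were called only in the left panel.

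Known targets of p53 were collected in 7 lists with 203 genes, of which 200 were in the table. Of the 190 that passed the filter on low values, 112 rose and 0 fell without the library labelled DMSO 3, and 88 rose and 0 fell in all 6 libraries. Their median difference was 0.67 without that library and 0.57 in all libraries, against -0.03 and -0.02 over all genes tested. At an unadjusted p under 0.05, 4 and 5 of them were lower, and voom on recovered reads called 2 and 1 lower. Of all genes tested, limma called 2.23% higher and 0.835% lower without that library, and 1.91% and 0.546% in all libraries. These shares are the background for each list below. Reads came from bulk RNA, so a change in the share of cells that express a gene and a change in RNA per cell cannot be told apart.

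In a list named for feedback on p53, 9 of 17 measured genes rose without that library and 7 in all libraries, with 0 lower in either. The name is that of the list, and feedback was not tested for its members. MDM2, the target of the drug, stood at 14.71, 14.60 and 14.55 in the Nutlin libraries and at 12.44, 12.50 and 14.77 in the DMSO libraries. Every Nutlin library was above DMSO libraries 1 and 2 and below the library labelled DMSO 3. Without that library MDM2 was 4.46-fold higher in normalised reads, a difference of 2.15 ± 0.10 (SE, as after every ± here; limma adjusted p = 1.4e-07), and with it the difference was 1.38 ± 0.42 and the call was lost (adjusted p = 0.135). PPM1D, the phosphatase that removes activating phosphates from p53, gave 12.34, 12.26 and 12.41 with Nutlin and 11.01, 11.03 and 12.47 with DMSO, and its call was lost in the same way (limma adjusted p = 1.89e-06 without the library and 0.17 with it). TP53INP1, a stress protein that acts with p53 in autophagy and cell death, gave 10.65, 10.47 and 10.49 with Nutlin and 8.35, 8.43 and 12.48 with DMSO. In these 3 genes only the library labelled DMSO 3 closed the gap between the groups.

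Other genes of the feedback list held in both fits. TRIM22, an interferon-inducible ubiquitin ligase, gave 10.50, 10.35 and 10.29 with Nutlin and 9.05, 9.00 and 8.81 with DMSO, with no overlap and differences of 1.35 ± 0.10 without the library labelled DMSO 3 and 1.43 ± 0.09 with it. ZMAT3, an RNA-binding zinc finger protein, gave 12.46, 12.34 and 12.30 with Nutlin and 11.15, 11.05 and 11.69 with DMSO, again without overlap. PHLDA3, which blocks AKT at the membrane, rose by 0.99 ± 0.12 and 0.89 ± 0.12 in the 2 fits. MDM4, the MDM2 relative that restrains p53, gave 11.04, 11.00 and 10.89 with Nutlin and 10.45, 10.85 and 11.57 with DMSO, and it did not pass the test in either fit (adjusted p = 0.414 and 0.993, limma).

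**Figure D2:**
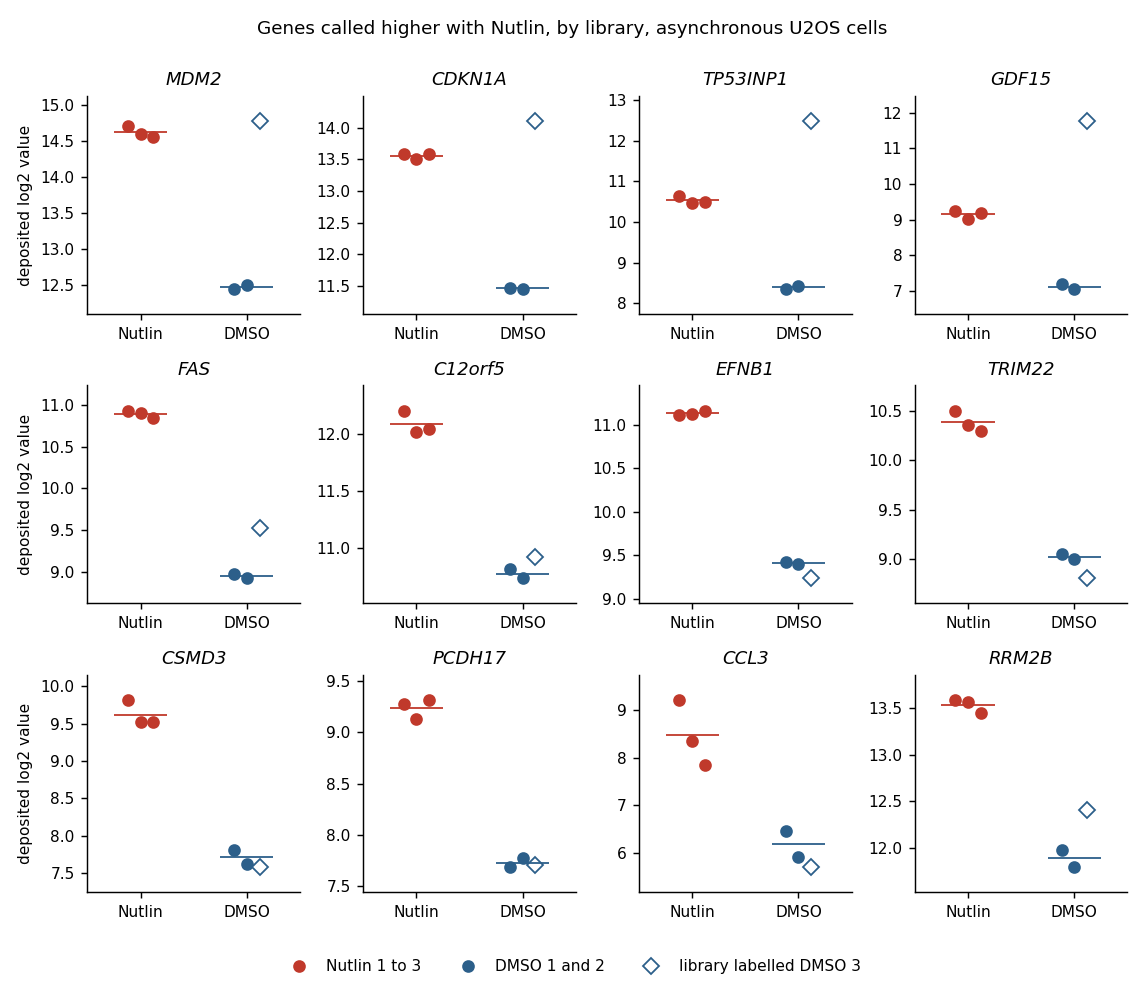
Deposited log2 values by library for 12 genes called higher without the library labelled DMSO 3, with the 3 Nutlin libraries at the left of each panel and the 3 DMSO libraries at the right. Lines are the means of the Nutlin libraries and of DMSO libraries 1 and 2, and the open diamond is the library labelled DMSO 3, which lies above every Nutlin library for MDM2, CDKN1A, TP53INP1 and GDF15 and below every Nutlin library for FAS, C12orf5, EFNB1, TRIM22, CSMD3, PCDH17, CCL3 and RRM2B.

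Genes of cell cycle arrest rose in 14 of 21 measured cases without the library labelled DMSO 3 and in 12 with it, and 0 fell. CDKN1A, which encodes p21, stood at 13.58, 13.51 and 13.59 in the Nutlin libraries and at 11.47, 11.45 and 14.10 in the DMSO libraries. It was 4.36-fold higher than in DMSO libraries 1 and 2, a difference of 2.10 ± 0.12 (limma adjusted p = 3.58e-07), and the call was lost in all 6 libraries (1.22 ± 0.49, adjusted p = 0.305). BTG2, an antiproliferative partner of mRNA deadenylases, gave 11.77, 11.65 and 11.62 with Nutlin and 9.37, 9.44 and 10.58 with DMSO, so that the groups did not overlap. It was 5.20-fold higher in normalised reads and was called in both fits, at 2.28 ± 0.12 and 1.88 ± 0.24. The sestrin genes SESN1 and SESN2, whose products restrain mTORC1, rose by 1.69 ± 0.12 and 1.43 ± 0.10 without that library and by 1.30 ± 0.23 and 1.29 ± 0.11 with it. GDF15, a secreted cytokine of the TGF-beta family, gave 9.23, 9.03 and 9.19 with Nutlin and 7.19, 7.05 and 11.76 with DMSO, with a difference of 2.03 ± 0.17 without that library and 0.48 ± 0.85 (adjusted p = 0.934, limma) with it. SFN, which encodes 14-3-3 sigma, was called only in all 6 libraries (0.51 ± 0.11, adjusted p = 0.0209, against 0.42 ± 0.11 and 0.0509 without, limma).

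Cell death targets split by gene. Of 22 measured, 10 rose without the library labelled DMSO 3 and 11 with it, and 0 fell. The death receptor gene FAS gave 10.93, 10.90 and 10.84 with Nutlin and 8.98, 8.93 and 9.53 with DMSO, a 4.18-fold rise in normalised reads over DMSO libraries 1 and 2 and a difference of 1.93 ± 0.12. TNFRSF10B, which encodes the TRAIL receptor DR5, gave 12.52, 12.38 and 12.41 with Nutlin and 11.23, 11.37 and 11.41 with DMSO. Neither receptor overlapped between groups. BBC3, which encodes the BH3-only killer PUMA, stood at 10.09, 10.19 and 10.30 in the Nutlin libraries and at 8.15, 8.34 and 9.52 in the DMSO libraries, and rose by 1.95 ± 0.16 and 1.52 ± 0.27 in the 2 fits. The pore former BAX rose less, by 0.74 ± 0.10 and 0.70 ± 0.09, and APAF1, the scaffold of the apoptosome, by 0.90 ± 0.09 and 0.71 ± 0.13. PMAIP1, which encodes NOXA, gave 11.01, 11.10 and 10.95 with Nutlin and 10.74, 10.60 and 10.35 with DMSO, and did not pass the test (0.35 ± 0.17, adjusted p = 0.415, without the library and 0.46 ± 0.16, adjusted p = 0.222, with it, limma). The survival gene BCL2L1, which encodes BCL-XL, also rose, by 0.77 ± 0.12 and 0.85 ± 0.11.

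DNA repair and nucleotide supply gave 7 increases among 13 measured targets in both fits, and 0 decreases. RRM2B, the p53-driven small subunit of ribonucleotide reductase, gave 13.59, 13.57 and 13.45 with Nutlin and 11.98, 11.79 and 12.41 with DMSO. It rose by 1.65 ± 0.15 without the library labelled DMSO 3 and by 1.47 ± 0.17 with it. POLH, the translesion polymerase eta, rose by 1.36 ± 0.13 and 1.16 ± 0.15. The damage sensors of nucleotide excision repair DDB2 and XPC rose by 0.95 ± 0.08 and 1.05 ± 0.10 without that library, and by 0.79 ± 0.12 and 0.84 ± 0.15 with it.

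Targets in metabolism, autophagy and the lysosome rose in 18 of 31 measured cases without the library labelled DMSO 3 and in 13 with it, and 0 fell. C12orf5, which encodes the fructose bisphosphatase TIGAR, gave 12.21, 12.02 and 12.05 with Nutlin and 10.81, 10.73 and 10.92 with DMSO, a rise of 1.32 ± 0.08 without the library and 1.27 ± 0.08 with it. FDXR, a mitochondrial reductase of iron-sulphur and steroid metabolism, gave 11.72, 11.73 and 11.73 with Nutlin and 10.38, 10.28 and 10.57 with DMSO. In neither gene did any DMSO library come within 1 unit of a Nutlin library. The alkaline ceramidase gene ACER2 was 5.48-fold higher in normalised reads than in DMSO libraries 1 and 2, at 8.19, 8.11 and 7.96 with Nutlin and 6.38, 6.54 and 7.82 with DMSO. The AMPK subunit gene PRKAB2 rose by 0.77 ± 0.10 and 0.74 ± 0.09, and the lysosomal fucosidase gene FUCA1 by 1.13 ± 0.16 and 1.05 ± 0.15. In a separate list of 45 measured lysosomal genes, FUCA1 was the 1 gene called in each fit. That is about the share of all genes tested that rose, 2.23% without the library and 1.91% with it.

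Surface, adhesion and secreted targets rose in 27 of 44 measured cases without the library labelled DMSO 3 and in 21 with it, and 0 fell. PVRL4, which encodes the adhesion protein nectin-4, had the largest log2 difference of any call without that library, on a scale that compresses low values. It stood at 10.55, 10.16 and 10.17 in the Nutlin libraries and at 7.64, 7.36 and 9.05 in the DMSO libraries, a 9.39-fold rise in normalised reads and a difference of 2.79 ± 0.16 (2.28 ± 0.31 in all libraries). EFNB1, the ephrin B1 ligand, gave 11.11, 11.12 and 11.16 with Nutlin and 9.43, 9.40 and 9.24 with DMSO. From a separate list of cadherins, the protocadherin gene PCDH17 gave 9.28, 9.13 and 9.32 with Nutlin and 7.68, 7.77 and 7.70 with DMSO. All DMSO libraries lay within 1 unit of each other in both genes and more than 1 unit below the Nutlin libraries. CDH10, a cadherin known from neurons, rose by 1.25 ± 0.14 and 1.24 ± 0.12. SERPINB5, which encodes maspin, gave 8.25, 8.21 and 7.84 with Nutlin and 6.33, 6.22 and 9.13 with DMSO, and its call was lost in all 6 libraries (adjusted p = 1.18e-05 without the library and 0.591 with it, limma).

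The list of less studied p53 targets had 38 increases among 56 measured genes without the library labelled DMSO 3 and 27 with it, and 0 decreases. FBXW7, the substrate receptor of a ubiquitin ligase for cyclin E and MYC, gave 11.43, 11.37 and 11.37 with Nutlin and 10.49, 10.45 and 10.57 with DMSO. The groups stood apart in every library, with differences of 0.92 ± 0.09 and 0.89 ± 0.08. RNF19B and FBXO22, both parts of ubiquitin ligases, rose by 1.14 ± 0.09 and 0.85 ± 0.10 without that library and by 1.03 ± 0.10 and 0.81 ± 0.09 with it. FAM212B gave 11.22, 11.26 and 11.34 with Nutlin and 9.06, 9.72 and 10.08 with DMSO, a rise of 1.88 ± 0.18 and 1.65 ± 0.20.

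Of the genes called higher, 190 of 318 without the library labelled DMSO 3 and 166 of 273 in all libraries stood on none of the 49 lists used here. The cell polarity gene PARD6G gave 11.51, 11.18 and 11.41 with Nutlin and 9.45, 9.40 and 9.08 with DMSO, 4.12-fold higher in normalised reads than DMSO libraries 1 and 2. CSMD3, which encodes a very large membrane protein with complement-like domains, gave 9.82, 9.52 and 9.52 with Nutlin and 7.81, 7.62 and 7.58 with DMSO, and PSTPIP2, a membrane-bending F-BAR protein, gave 10.55, 10.27 and 10.29 against 8.66, 8.69 and 9.02. No DMSO library reached a Nutlin library in any of the 3. SULF2, an enzyme that removes sulphate from heparan chains outside the cell, gave 7.70, 7.57 and 7.63 with Nutlin and 5.86, 5.90 and 11.90 with DMSO. Its difference was 1.75 ± 0.13 without the library labelled DMSO 3 and -0.25 ± 1.09 with it, a change of sign, and its 3756 normalised reads there compare with at most 153.3 in any of the other 5. GREB1, an oestrogen-induced gene of breast cells, was the 1 luminal breast marker called, at 9.55, 9.31 and 9.16 with Nutlin and 7.78, 7.62 and 9.60 with DMSO, and only without that library.

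PTCHD4, a patched-related membrane protein gene, is shown because its promoter holds a p53-type site, and it was chosen for that after its values were seen. It gave 8.38, 8.66 and 8.65 with Nutlin and 7.46, 7.71 and 7.30 with DMSO, a rise of 0.98 ± 0.12 and 1.07 ± 0.12 without overlap. The p53-type motif is a pair of decamers with up to 1 base between them, searched on both strands at once, being its own reverse complement. Up to 2 mismatches per pair were allowed, but none in the core of a decamer, read as C, A or T, A or T, G. The motif was present in the 250 bases before the RefSeq start of 0.242% of 27305 promoters and 0.184% of the 10889 tested genes that could be matched to one. In the stretch on GRCh38.p14, chr6:48111198-48111227, minus strand, ending at the base before the start, capitals mark the match.
PTCHD4: tggtcatgggAGGCTTGCCCAGACTTGCCC
Over the 7 p53 target lists, promoters were matched for 154 of 200 genes, and 1 of the 154 held the motif (0.649%). Genes without a matched promoter leave this share uncertain, as they do the share of tested genes. Many p53 sites are known to lie outside such a window.

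Some inflammatory and stress genes rose. Among those called, CSF1, SESN2 and GDF15 (only without the library labelled DMSO 3) also stand on the lists of p53 targets. Of 22 measured cytokine and NF-kB feedback genes, 5 rose and 0 fell in each fit. Over all genes tested, 2.23% rose without the library labelled DMSO 3 and 1.91% rose with it. The chemokine gene CCL3 stood at 539.8, 270.9 and 176.3 normalised reads in the Nutlin libraries and at 39.3, 16.6 and 10.1 in the DMSO libraries, 11.8-fold higher than in DMSO libraries 1 and 2, with log2 differences of 2.28 ± 0.29 and 2.45 ± 0.27. The related chemokine gene CCL4 stood at 75.6, 30.6 and 34.2 normalised reads with Nutlin and at 0 in all 3 DMSO libraries. A count of 0 allows up to 3 reads per library, which makes CCL4 at least 15.8-fold higher, counting error only. CSF1, the macrophage growth factor, rose by 1.42 ± 0.18 and 1.44 ± 0.16, and TNFAIP3, which encodes the NF-kB inhibitor A20, by 0.71 ± 0.13 and 0.79 ± 0.12. The summed blood cell markers, given above, overlapped between groups. Among 31 targets of ATF4 and of the unfolded protein response, 4 rose and 0 fell in each fit, led by ATF3, a stress transcription factor, at 9.34, 9.09 and 9.44 with Nutlin and 8.05, 8.17 and 8.16 with DMSO. The synaptic immediate early gene ARC gave 10.42, 10.41 and 10.28 with Nutlin and 9.19, 8.86 and 8.69 with DMSO, and rose by 1.34 ± 0.18 and 1.46 ± 0.17.

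Genes that E2F is known to switch on at entry into S phase were lower with Nutlin. Of 50 measured, 30 fell and 1 rose without the library labelled DMSO 3, and 24 fell and 1 rose in all 6 libraries. Their median difference was -0.47 and -0.41. Over all genes tested, 0.835% fell and 2.23% rose without that library, and 0.546% and 1.91% in all libraries. In the promoters of this list, 40 of 50 genes could be matched, and 23 of them (57.5%) held an E2F-type motif, spelled TTCCCGC, otherwise TTCGCGC, otherwise TTGCCGC or finally TTGGCGC on either strand, within 250 bases before the start. The same letters were found in 17.4% of the tested genes that could be matched to a promoter and 11.0% of all RefSeq promoters. The list was made of known E2F genes and all matched members were counted, called or not. Its share thus describes the list and not the response to Nutlin. Members with lower values in Nutlin libraries in both fits are shown with the motif in capitals, all on the minus strand of GRCh38.p14. E2F1 is at chr20:33686388-33686428, ORC1 at chr1:52404426-52404455, MCM6 at chr2:135876513-135876604 and GINS2 at chr16:85688969-85688995. In ORC1 and MCM6 a pair of overlapping matches on opposite strands forms each capital run.
E2F1: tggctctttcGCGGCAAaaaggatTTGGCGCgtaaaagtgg
ORC1: gccacgccgaTTGGCGCGAAgttttctttt
MCM6: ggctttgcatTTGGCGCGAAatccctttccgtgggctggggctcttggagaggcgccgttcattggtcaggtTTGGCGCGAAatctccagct
GINS2: tctcgccgtgGCGGGAAaacggcggcc
A match of letters is a description of the sequence and not a measured binding site.

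The E2F genes themselves were lower. E2F1 stood at 9.45, 9.50 and 9.64 in the Nutlin libraries and at 9.93, 10.25 and 9.91 in the DMSO libraries, with differences of -0.56 ± 0.11 and -0.50 ± 0.11 in the 2 fits. E2F2 gave 7.25, 7.71 and 7.63 with Nutlin and 8.29, 8.72 and 8.58 with DMSO, with 0.426 times the normalised reads of DMSO libraries 1 and 2. Both genes separated the groups in all 6 libraries. Among origin and helicase genes, ORC1, a subunit of the origin recognition complex, gave 9.43, 9.65 and 9.71 with Nutlin and 10.23, 10.22 and 9.99 with DMSO. The replicative helicase subunit MCM6 gave 10.03, 10.01 and 10.17 with Nutlin and 10.63, 10.56 and 10.59 with DMSO, and GINS2, a helicase partner, 9.70, 9.75 and 9.68 against 10.44, 10.35 and 9.92. In each of them the Nutlin libraries were the lowest 3. CCNE2, the cyclin E2 gene, gave 8.41, 8.40 and 8.39 with Nutlin and 9.23, 8.87 and 8.78 with DMSO, and CDC25A, the phosphatase that activates CDK2, fell, at -0.62 ± 0.09 and -0.51 ± 0.10.

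Other members of the list also separated the groups. ZNF367, a zinc finger gene, gave 8.97, 9.13 and 9.23 with Nutlin and 9.99, 10.06 and 9.70 with DMSO. The mismatch repair gene MSH6 gave 11.80, 11.90 and 12.05 with Nutlin and 12.63, 12.70 and 12.44 with DMSO. UNG, the uracil DNA glycosylase, and UHRF1, the partner of the maintenance methyltransferase, fell, at -0.64 ± 0.11 and -0.55 ± 0.11 without the library labelled DMSO 3 and at -0.57 ± 0.11 and -0.49 ± 0.10 with it. That library lay between the Nutlin libraries and the other DMSO libraries for ZNF367 and MSH6. The 1 member that rose was PCNA, the sliding clamp, which is also on the list of p53 targets in repair, at 12.56, 12.50 and 12.55 with Nutlin and 12.13, 12.11 and 11.88 with DMSO (0.42 ± 0.10, adjusted p = 0.0368, and 0.50 ± 0.10, adjusted p = 0.0155, limma). TYMS, the thymidylate synthase gene, gave 12.09, 11.86 and 11.96 with Nutlin and 11.86, 11.77 and 11.84 with DMSO, which overlap, and did not pass the test.

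**Figure D3:**
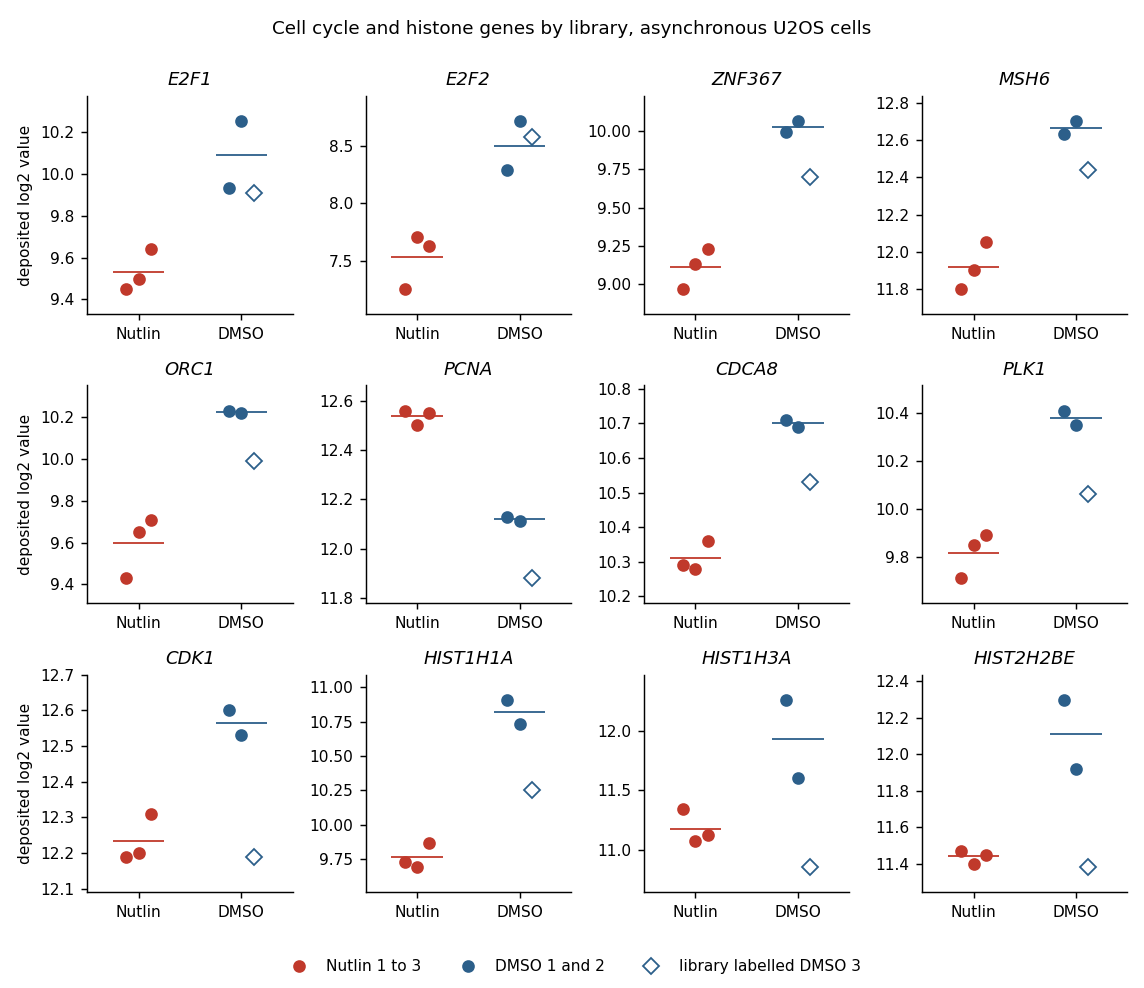
Deposited log2 values by library for 8 genes of G1/S and mitosis, CDK1 and 3 histone genes, with the 3 Nutlin libraries at the left of each panel and the 3 DMSO libraries at the right. Lines are the means of the Nutlin libraries and of DMSO libraries 1 and 2, and the open diamond is the library labelled DMSO 3, which lies between both groups for ZNF367, MSH6, ORC1, CDCA8, PLK1 and HIST1H1A and at or below the Nutlin libraries for CDK1, HIST1H3A and HIST2H2BE.

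Genes of G2 and mitosis had small negative differences, most of which did not pass the test. Of 78 measured, 11 fell and 0 rose without the library labelled DMSO 3, and 5 fell and 0 rose in all 6 libraries, with medians of -0.34 and -0.26. The difference was positive in 1 member without that library and in 0 members in all libraries. Over all genes tested, 0.835% fell without that library and 0.546% in all libraries. The CHR element, searched here as TTTGAA or TTCGAA on either strand, stood in the promoters of 32 of 66 matched members (48.5%). It stood in 9.89% of the tested genes matched to a promoter and 14.6% of all RefSeq promoters. CCAAT, on either strand, stood in 68.2% of the matched members, against 34.8% and 33.0%. Both shares cover all matched members, called or not, and so describe the list and not the response to Nutlin. PLK1, the mitotic polo-like kinase, at chr16:23678850-23678875 on the plus strand, CDCA8, the chromosomal passenger borealin, at chr1:37692483-37692508 on the plus strand, and HJURP, the chaperone of the centromeric histone, at chr2:233854631-233854656 on the minus strand of GRCh38.p14 are shown as called members, with the CHR in capitals.
PLK1: cagcgccgcgTTTGAAttcggggagg
CDCA8: gactgtggagTTTGAAttgggtggcg
HJURP: cgcaaatttgTTTGAAaggcccaatc
PLK1 gave 9.71, 9.85 and 9.89 with Nutlin and 10.41, 10.35 and 10.06 with DMSO and was called only without that library (adjusted p = 0.0217, against 0.0779 with it, limma). CDCA8 gave 10.29, 10.28 and 10.36 with Nutlin and 10.71, 10.69 and 10.53 with DMSO, and HJURP 10.97, 11.14 and 11.09 against 11.60, 11.48 and 11.27, and both fell in either fit. LMNB1, the lamin B1 gene, fell, at -0.50 ± 0.10 and -0.45 ± 0.09. CDK1, the mitotic kinase, gave 12.19, 12.20 and 12.31 with Nutlin and 12.60, 12.53 and 12.19 with DMSO, and CCNB1, its cyclin, 12.65, 12.73 and 12.80 against 13.14, 13.05 and 12.73. Both separated the Nutlin libraries from DMSO libraries 1 and 2 but neither passed the test (adjusted p = 0.314 and 0.236 without the library labelled DMSO 3, limma). Leaving out DMSO S-phase replicate 2 as well, both were called (adjusted p = 0.0123 and 0.0192, limma), and over all other fits without that library the adjusted p ran from 0.0123 to 0.767 for CDK1 and from 0.0111 to 0.693 for CCNB1.

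Replication-dependent histone genes were lower as a list, but their DMSO libraries differed among themselves. Of 42 measured, 9 fell and 0 rose without the library labelled DMSO 3, and 1 fell in all 6 libraries. Over all genes tested these shares were 0.835% lower without that library and 0.546% lower in all libraries. The list's median level was 10.95, 10.53 and 10.53 in the Nutlin libraries and 11.59, 10.85 and 10.35 in the DMSO libraries, so the DMSO libraries spanned more than the gap between the groups. HIST1H1A gave 9.73, 9.69 and 9.87 with Nutlin and 10.91, 10.73 and 10.25 with DMSO and was the histone gene called in both fits. HIST1H3A gave 11.34, 11.07 and 11.12 with Nutlin and 12.26, 11.60 and 10.85 with DMSO, where the library labelled DMSO 3 was the lowest of the 6. Histone genes of this family are near-identical copies, so reads may have been split or lost among them.

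Some polycomb and DNA methylation genes were called. In a list of 21 measured polycomb and DNA methylation genes, which shares UHRF1 with the E2F list, 3 fell and 1 rose without the library labelled DMSO 3, and 4 fell in all libraries. Their median difference was -0.02 without that library and -0.09 with it, against -0.03 and -0.02 over all genes tested. Of all genes tested, 0.835% fell and 2.23% rose without that library, and 0.546% fell in all libraries. The polycomb reader CBX2 fell, at -0.52 ± 0.10 without that library and -0.46 ± 0.10 with it. EZH2, the polycomb methyltransferase, was called lower only in all libraries (-0.38 ± 0.09, adjusted p = 0.037, against 0.0873 without, limma), and its paralogue EZH1 was called higher only without that library. CDKN2C, which encodes the CDK4 inhibitor p18, fell, at -0.53 ± 0.11 and -0.48 ± 0.10. MYC gave 11.95, 12.03 and 11.86 with Nutlin and 12.12, 11.90 and 11.65 with DMSO, which overlap, and did not pass the test.

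**Figure D4:**
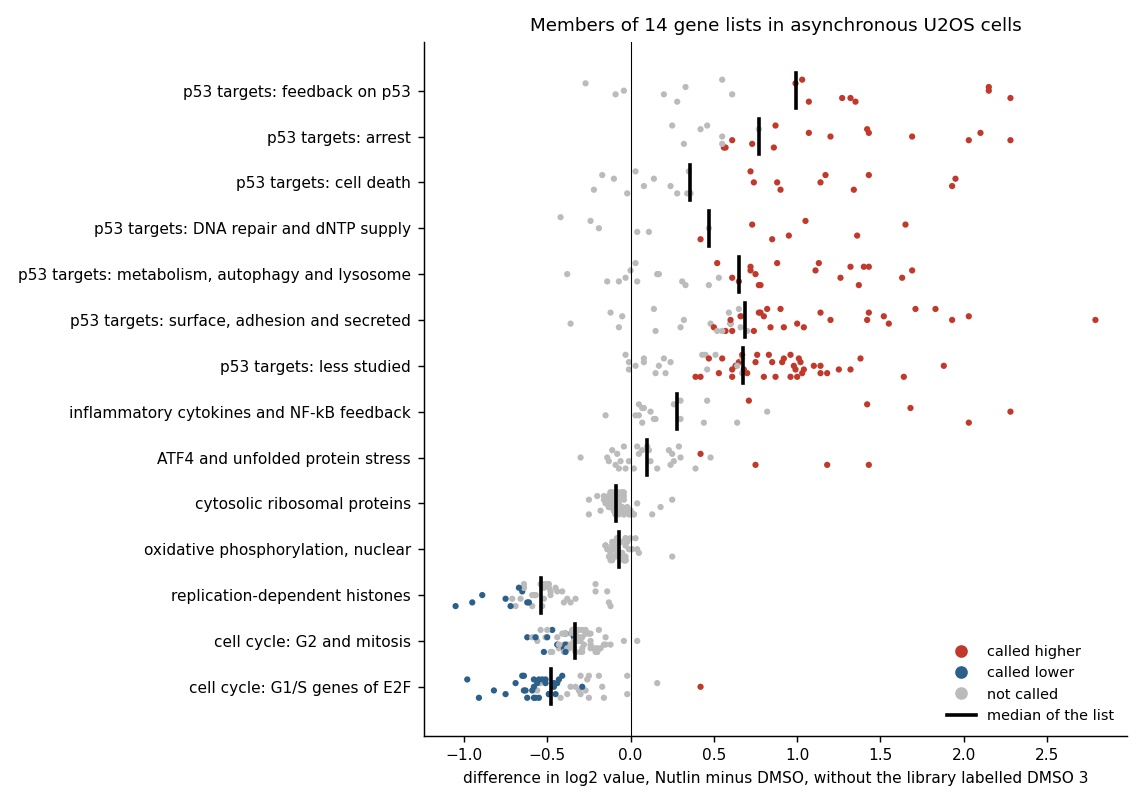
Difference in deposited log2 value, Nutlin minus DMSO, without the library labelled DMSO 3 (horizontal axis), for the tested members of 14 gene lists (rows), with 1 point per gene, red for genes called higher, blue for genes called lower and grey for the rest. Black bars are medians, which run from 0.99 for the list named for feedback on p53 to -0.54 for replication-dependent histones, with cytosolic ribosomal proteins at -0.09.

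Housekeeping programmes gave no calls in either fit. None of 71 measured cytosolic ribosomal protein genes, 45 nuclear genes of oxidative phosphorylation, 24 genes of glycolysis, 31 of sterol synthesis and uptake, 30 of the proteasome or 32 of splicing passed the test with limma or with voom, with medians between -0.16 and -0.05 without the library labelled DMSO 3 and between -0.09 and 0.03 with it. At an unadjusted p under 0.05 stood 9 of these 233 genes without that library and 6 in all libraries. Of 40 genes of ribosome biogenesis, 1 fell, NOLC1, a nucleolar scaffold, at -0.32 ± 0.08 and -0.33 ± 0.07. A gene that misses the threshold here is not shown to be unaffected.

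The library labelled DMSO 3 did not stand alike in all called genes. Among the 318 genes called higher without it, its value was nearer to the Nutlin mean than to the mean of DMSO libraries 1 and 2 in 121, beyond every Nutlin library in 49, and beyond the other DMSO libraries on the side away from Nutlin in 74. For the 119 genes called lower these numbers were 52, 7 and 10. On a scale where DMSO libraries 1 and 2 average 0 and the Nutlin libraries average 1, its median position was 0.29 for genes called higher and 0.47 for genes called lower. The libraries that set this scale also chose the genes, and no other DMSO library was left out and placed on it. Other genes passed the test only with the library labelled DMSO 3 included. ITGA2, the integrin alpha 2 gene, gave 12.91, 12.31 and 11.81 with Nutlin and 11.84, 10.82 and 10.88 with DMSO, where DMSO library 1 overlapped Nutlin library 3, and was called only in all 6 libraries (adjusted p = 0.0353, against 0.0914 without, limma). LAMB3, a laminin chain gene, was likewise called only with it (0.57 ± 0.12, adjusted p = 0.0262, against 0.43 ± 0.11 and 0.0571, limma).

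Many of the increases, but few of the decreases, were also called in cells held in the thymidine block (non-released, 2 Nutlin and 2 DMSO libraries) and in S-phase cells (2 Nutlin and 3 DMSO libraries). These comparisons have DMSO libraries of their own but share the spread fitted per gene. Of the 318 genes called higher in asynchronous cells without the library labelled DMSO 3, 198 (62.3%) were also called higher in non-released cells, where 1.8% of all genes were, and 237 (74.5%) in S-phase cells, where 2.88% were. Their differences were positive in 99.7% and 98.4% of cases, against 44.2% and 48.8% of all genes. In all 6 libraries, 107 of the 273 (39.2%) were called higher in non-released cells (0.874% of all genes) and 178 (65.2%) in S-phase cells (1.84%). Of the 119 genes called lower, 9 (7.56%) were called lower in non-released cells, against 0.119% of all genes, and 5 (4.2%) in S-phase cells, against 0.386%. In all 6 libraries these were 4 of 78 (5.13%, against 0.042%) and 2 of 78 (2.56%, against 0.161%). Without the library labelled DMSO 3, most of the 119 genes kept their direction. Their differences were negative in 96.6% of cases in non-released and 85.7% in S-phase cells, against 55.8% and 51.2% of all genes. Their median was -0.49 in asynchronous cells, by values that chose them, -0.23 in non-released cells and -0.12 in S-phase cells. A total of 181 genes were called higher in all 3 states and 3 were called lower.

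The E2F list had 30 decreases in asynchronous cells and 0 in either other state, with medians of -0.47 in asynchronous, -0.18 in non-released and -0.07 in S-phase cells. ZNF367 shows it, with differences of -0.91 ± 0.10 in asynchronous cells, -0.27 in non-released cells and -0.06 in S-phase cells. The differences between states were themselves tested. With limma and no replicate block, 0 genes passed for asynchronous minus non-released and 0 for asynchronous minus S-phase, in either fit. At an unadjusted p under 0.05 stood 261 (1.83%) and 1174 (8.23%) genes without the library labelled DMSO 3, and 155 (1.08%) and 787 (5.5%) in all libraries. With voom on recovered reads 1 gene passed, TP53INP1, for asynchronous minus non-released without that library, and 0 in the other 3 cases. Its voom difference between these states was 1.28 ± 0.16. In the limma fit, where TP53INP1 did not pass for this difference, it gave 2.15 ± 0.10 in asynchronous cells against 1.04 in non-released cells. With DMSO S-phase replicate 2 and the library labelled DMSO 3 both left out, 3 genes passed with limma for asynchronous minus non-released, BTG2, SESN1 and TP53INP1, all with positive differences in both states. With a replicate block, chosen for these differences after seeing the data, limma called 0 genes in all libraries. Without the library labelled DMSO 3 the block gave 1 gene for asynchronous minus non-released. It gave 310 for asynchronous minus S-phase (147 positive, 163 negative), ZNF367 among them. These counts depend on the fit and do not show that the responses were alike.

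**Figure D5:**
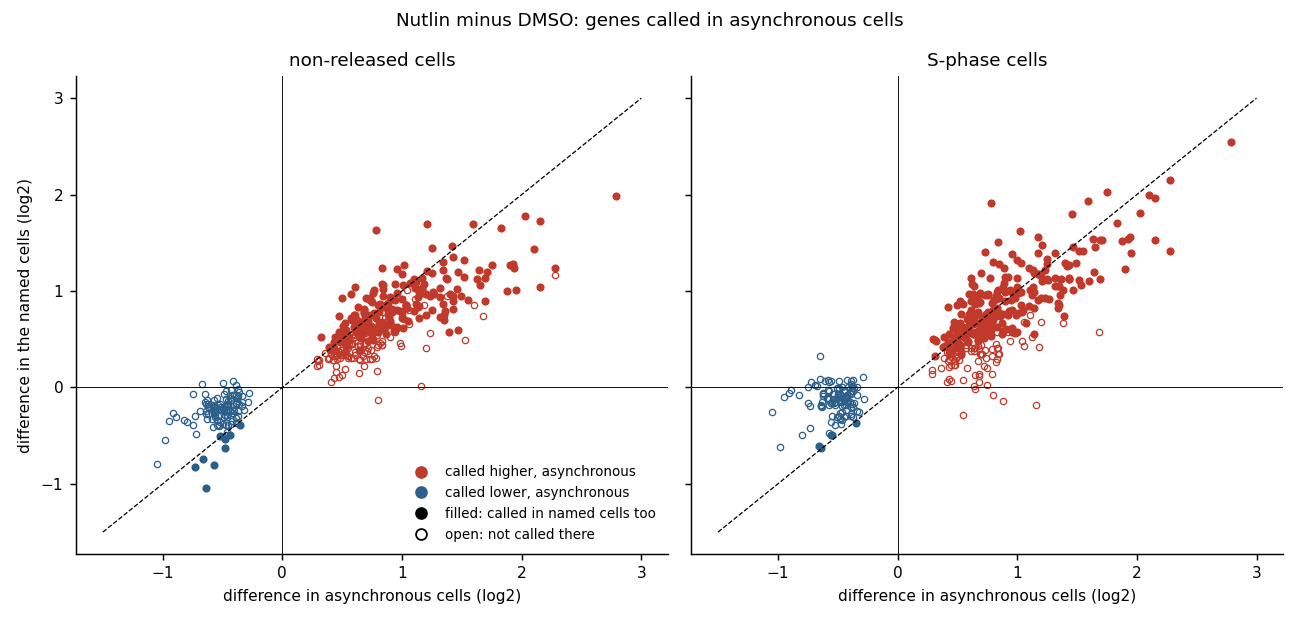
Difference in deposited log2 value, Nutlin minus DMSO, in non-released cells (left) and in S-phase cells (right) on the vertical axis, against that in asynchronous cells without the library labelled DMSO 3 on the horizontal axis, for the 437 genes called there. Red genes were called higher and blue genes lower in asynchronous cells, filled points were called in the named cells too, and the dashed line marks equal differences. Blue points lie mostly between the dashed line and 0, with medians of -0.23 and -0.12 on the vertical axis.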

How the data were processed

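RNA sequencing of U2OS cells was analysed from 1 table of 23368 genes by 15 libraries. The authors deposited variance-stabilised values on a log2 scale, in which low values are compressed. Of the authors' tools, the submitters' processing notes list DESeq2 1.10.1, HTSeq, TopHat and CASAVA 1.8.2, with hg19 as the build and no role for any. Per the labels' protocols, TruSeq libraries were read as single reads. The strand and the annotation are not given in the sources used here. Spreadsheet dates stand for 28 gene names.

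Reads were recovered by inverting the transformation from the shared lowest value of 4.859, that of 0 reads. After scaling by 1 factor per library, 99.04 to 99.98% of genes lay within 0.05 of a whole read. A count of 0 allows up to 3 reads, which is 0.129 to 0.252 counts per M reads in the asynchronous libraries, for counting error only. Libraries of a group differed by more than sampling noise, with a variance 3.82 to 90.2 times the noise.

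Groups were taken from the labels. A mean for each of the 6 groups was fitted with limma (3.58.1, under R 4.3.3) to all 15 libraries, or to 14 without the library labelled DMSO 3, and moderated by eBayes with a trend. A gene entered if 2 libraries or more lay at least 1 unit above the lowest value, and it was tested two-sided, with Benjamini-Hochberg adjustment over all of them, and a call is an adjusted p under 0.05. A wide gap inside any group raises the spread fitted for that gene in every comparison. Folds are ratios of mean normalised reads, Nutlin over DMSO libraries 1 and 2. The fit was also run on simulated reads with known changes. Those had the same spread in every library and no outlying library, so that run does not vouch for the fit on these data.

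The gene lists and the members named were chosen with earlier results of these data known. Genes named are the 20 largest called differences in each direction without that library and with at least 50 normalised reads in the higher group, up to 6 called members of a list per direction, called differences between states, and a few fixed genes and markers. PMAIP1, SFN, TYMS, MCM6, BCL2L1 and the genes of the promoter display were named after their values were seen. Alternatives were other sets of libraries, other filters, voom on recovered reads, median centring, robust eBayes and a replicate block. Promoters are RefSeq's, on GRCh38.p14, matched by symbol only, since the files use hg19.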

Additional observations from a re-analysis of the deposited data

How the results depend on the processing

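The counts depended on which libraries set the spread. With the asynchronous libraries alone, calls came to 209 (26 lower) in all libraries and 675 (236 lower) without the library labelled DMSO 3. Leaving out DMSO S-phase replicate 2, the shallowest library, gave 525 calls in all libraries (357 higher, 168 lower), and 888 in total (536 higher, 352 lower) without the library labelled DMSO 3. It also gave 3 genes for asynchronous minus non-released (BTG2, SESN1 and TP53INP1), and voom and centring gave 1, TP53INP1. Leaving out 1 asynchronous library at a time gave 171 to 437 calls in all libraries (158 to 318 higher, 13 to 119 lower), lowest without Nutlin replicate 1, with 195 without Nutlin replicate 2 and 207 without DMSO replicate 2. Without the library labelled DMSO 3 the range was 213 to 378 (190 to 280 higher, 23 to 98 lower), with 213 without DMSO replicate 1 and 279 without Nutlin replicate 1. The cause was not tested.

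Same-numbered asynchronous libraries deviated together with correlations of 0.313, 0.136 and 0.074, the last with the library labelled DMSO 3, and those of the other states at 0.325 to 0.351. Not every pair passed 0.1, so the numbers were not taken to pair them. The pair under 0.1 was that with the library labelled DMSO 3. The main fit without that library had no block either, although its remaining pairs passed 0.1. Nutlin library 3 and DMSO library 2, numbered differently, reached 0.221. With a replicate block the calls were 539 in all libraries (144 lower) and 1050 without the library labelled DMSO 3 (577 higher, 473 lower). For differences between states the block gave 0 calls in all libraries. Without the library labelled DMSO 3 it gave 1, TP53INP1, for asynchronous minus non-released and 310 for asynchronous minus S-phase (147 positive, 163 negative), ZNF367 and CCNE2 among them, where the fit with no block gave 0. With no filter, asynchronous minus non-released gave 34 genes in all libraries and 45 without that library, and asynchronous minus S-phase 3 and 6, of which 1 in each case passed the filter. Apart from these and from voom, centring and the left-out S-phase library, given above, all other fits gave 0, leaving out single asynchronous libraries included. These fits of the differences, apart from voom and the left-out S-phase library, were chosen after seeing the data. Dropping the filter on low values, a stricter filter, voom, centring and robust eBayes kept all counts of asynchronous calls within 1.5 times. Of 88 genes named, calls lost in all libraries and without the library labelled DMSO 3 were 22 and 2 with the asynchronous libraries alone, 15 and 8 with no filter, 5 and 1 with centring, and up to 24 and 17 on leaving out single libraries. In all libraries HJURP lost its call in 9 of 14 other fits, GINS2 and PCDH18 in 8, and ACER2, CCNE2, CDCA8, ITGA2 and LAMB3 in 7. Without the library labelled DMSO 3, PCNA and NOLC1 lost theirs in 6 of 13, and EZH1, MCM6, PLK1, PLXNB2 and TGFA in 5.

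Overlap with other states was recomputed in ways chosen after seeing the data, in fits that called more asynchronous genes. Without DMSO S-phase replicate 2 and the library labelled DMSO 3, 314 of 536 genes called higher were also higher in non-released cells. The main fit gave 198 of 318. Of genes called lower with both left out, 29 of 352 were lower in non-released cells and 16 of 352 in S-phase cells. With voom, 17 of 142 were lower in non-released cells. In all 6 libraries these were 10 of 168, 5 of 168 and 8 of 95. Shares of all genes called in the other states were not worked out for these fits. The sign of SULF2 in all libraries was positive with voom (0.64), and from -1.27 to 1.75 on leaving out single libraries. GDF15 ran from -0.33 to 2.03 and MDM4 from -0.23 to 0.33. MYC ran from -0.06 to 0.17, and without the library labelled DMSO 3 from -0.17 to 0.05. With 6.05 to 23.38 M reads per library, depth limits what can be told of genes with few reads.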

Other observations

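Some genes of the guidance and growth factor lists were called. Without the library labelled DMSO 3, 3 of 33 receptor tyrosine kinases and ligands rose and 1 fell (median difference 0.01), and 2 of 15 ephrins and Eph receptors rose and 1 fell (median -0.04), against 2.23% and 0.835% of all genes tested. Of 34 measured semaphorin, plexin and netrin genes, 3 rose and 0 fell without that library (median 0.05), all of them plexin B receptors. In all libraries 2 rose, PLXNB2 and the netrin gene NTN1. PLXNB2 gave 13.44, 13.57 and 13.58 in the Nutlin libraries and 12.60, 12.97 and 12.96 in the DMSO libraries, with no overlap (0.74 ± 0.17, limma adjusted p = 0.0342 without that library, and 0.68 ± 0.16, 0.0367 with it). TGFA, a ligand of the EGF receptor, gave 10.69, 10.05 and 9.79 with Nutlin and 9.51, 8.84 and 8.89 with DMSO (1.00 ± 0.22, limma adjusted p = 0.0251 without that library, and 1.09 ± 0.20, 0.0092 with it). EPHA2, an ephrin receptor, gave 12.97, 13.02 and 12.96 with Nutlin and 12.45, 12.38 and 12.15 with DMSO. FHL2, a LIM domain cofactor, gave 12.70, 12.70 and 12.69 with Nutlin and 11.94, 11.84 and 11.52 with DMSO.

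Of the genes called lower, 58 of 119 without the library labelled DMSO 3 and 38 of 78 in all libraries stood on no list. Of these, WDR76 gave 8.93, 9.07 and 9.10 with Nutlin and 9.74, 9.79 and 9.51 with DMSO, and SAPCD2 gave 8.73, 9.02 and 9.33 against 9.68, 9.97 and 9.64. From the Wnt list, the receptor gene FZD2 gave 8.38, 8.67 and 8.92 with Nutlin and 9.17, 9.47 and 8.99 with DMSO, and its call was lost in all libraries (adjusted p = 0.0176 without that library and 0.0527 with it, limma). From the cadherin list, PCDH18 gave 6.46, 6.66 and 6.77 with Nutlin and 7.30, 7.25 and 6.92 with DMSO. FZD2 and PCDH18 were also called lower in non-released cells (-0.74 and -1.04) and in S-phase cells (-0.61 and -0.63), where 9 and 5 of the 119 were.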
